A study of Mus musculus with 9 samples.

Results

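The genes described here are the 10 that encode the pore-forming subunits of the AMPA-type glutamate receptor (Gria1, Gria2, Gria3 and Gria4) and a set of their auxiliary proteins (Cacng2, Cacng3, Cacng8, Cnih2, Cnih3 and Shisa9). They were chosen by gene name and make up 10 of the 54532 genes listed in the expression tables. RNA was sequenced from the hippocampus of C57BL/6 mice in 9 samples, 3 in each of 3 groups. The Con group ate a standard diet. Mice of the HMD group were fed a diet high in methionine during 8 weeks. The Bet+HMD group had the same 8 weeks of diet and then 2 weeks of betaine, given in the drinking water at 2.5% (w/v). The mice were 6 to 8 weeks old when bought. The labels call them male whereas the methods of the study call them female, and summed Y-linked transcripts exceeded Xist in 9 of 9 libraries. Betaine donates a methyl group that turns homocysteine back into methionine, and a methionine-rich diet is used as a model of raised homocysteine. The comparisons ask what the diet did to the receptor genes and whether betaine after the diet changed them. Nothing in the labels or methods used here says that each sample was a separate animal, so p-values measure the spread between these samples.

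AMPA receptors carry most of the fast excitatory transmission in the brain, and their number and subunit make-up at the synapse change during learning in the hippocampus. Each receptor is a tetramer of GluA subunits, the products of the Gria genes, and the presence of GluA2 makes the channel nearly impermeable to calcium. Auxiliary proteins wrap around this core: the transmembrane AMPA receptor regulatory proteins (TARPs, from the Cacng genes) bring receptors to the synapse and slow their closing, the cornichon proteins (Cnih genes) help receptors leave the endoplasmic reticulum and prolong their currents, and CKAMP44, the product of Shisa9, alters recovery from desensitization.

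Promoter sequences are shown for 4 members whose values moved in opposite directions in Bet+HMD: Gria2 and Gria4, which had the largest rises against HMD and against Con respectively, and the cornichon genes Cnih2 and Cnih3, which fell. They come from RefSeq (GRCm38.p6), run 5′ to 3′ on the strand of the gene, and span 300 bases, most of them upstream of the annotated start. Capitals mark matches to a GC box (GGGCGG) or an E-box (CACGTG) on either strand. The Gria2 window is chr3:80802786-80803085 (minus strand), that of Gria4 is chr9:4796185-4796484 (minus), that of Cnih2 is chr19:5098472-5098771 (minus) and that of Cnih3 is chr1:181352378-181352677 (plus).
Gria2: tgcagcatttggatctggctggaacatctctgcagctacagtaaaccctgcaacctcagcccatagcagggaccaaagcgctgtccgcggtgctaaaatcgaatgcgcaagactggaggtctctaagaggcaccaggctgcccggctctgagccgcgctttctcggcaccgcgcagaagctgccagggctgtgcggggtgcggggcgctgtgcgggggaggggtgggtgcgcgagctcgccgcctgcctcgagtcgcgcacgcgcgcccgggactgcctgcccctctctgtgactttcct
Gria4: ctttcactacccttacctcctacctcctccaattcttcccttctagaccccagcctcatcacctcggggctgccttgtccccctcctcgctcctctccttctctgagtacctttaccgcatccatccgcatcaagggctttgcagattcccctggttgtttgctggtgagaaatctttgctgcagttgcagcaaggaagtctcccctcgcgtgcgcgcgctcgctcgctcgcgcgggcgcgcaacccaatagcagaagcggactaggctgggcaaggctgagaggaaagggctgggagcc
Cnih2: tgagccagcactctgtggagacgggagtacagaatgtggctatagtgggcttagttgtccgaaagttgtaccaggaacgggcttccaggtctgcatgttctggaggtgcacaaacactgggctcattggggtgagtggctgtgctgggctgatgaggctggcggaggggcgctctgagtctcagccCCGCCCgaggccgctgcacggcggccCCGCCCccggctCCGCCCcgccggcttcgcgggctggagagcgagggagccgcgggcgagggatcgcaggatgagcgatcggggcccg
Cnih3: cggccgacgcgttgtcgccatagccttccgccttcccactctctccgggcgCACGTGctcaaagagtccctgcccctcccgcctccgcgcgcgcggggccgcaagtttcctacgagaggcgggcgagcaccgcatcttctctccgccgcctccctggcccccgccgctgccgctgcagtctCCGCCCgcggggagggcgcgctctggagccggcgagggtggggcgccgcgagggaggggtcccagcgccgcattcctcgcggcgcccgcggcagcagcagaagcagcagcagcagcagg
The Cnih2 window held 3 GC boxes, and the Cnih3 window held 1 GC box and 1 E-box. No match to either motif, to a TATA box (TATAAA) or to a cyclic AMP response element (TGACGTCA) was found in the windows of Gria2 and Gria4. In all, 7 of the 10 members had a promoter entry, and the other 3 were Gria1, Gria3 and Shisa9. Of those 7, 2 held a GC box, and of all 32851 RefSeq promoters of this length 35.7% did. The E-box was found in 7.15% of all promoters, the TATA box in 13.6% and the cyclic AMP response element in 1.79%. These are matches of letters and show no binding. The windows of Gria2, Gria4, Cnih2 and Cnih3 held 26, 17, 25 and 42 CpG sites, against a median of 7 over all promoters. Those of Cacng2, Cacng3 and Cacng8, not shown, held 20, 9 and 2. The RefSeq start of Cnih2 lies upstream of the gene's 5′ end in the expression table, which places the gene at chr19:5092871-5098418 (minus strand).

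The tables give FPKM, read counts scaled for gene length and sequencing depth. Levels of different genes can be set side by side as far as the length used for each gene holds. One table holds Con and HMD, and a second holds all 3 groups. Libraries held 16031464 to 18566712 reads assigned to genes. The 3 Bet+HMD libraries stood apart from the rest. Their log2 values correlated at 0.984 to 0.985 with one another and at 0.891 to 0.918 with those of Con and HMD. Within and between Con and HMD the correlations were 0.942 to 0.982. Replicate pairs gave chi-squares, divided by their degrees of freedom, from 3 to 4.21 in Bet+HMD and from 11.8 to 42.2 in Con and HMD. P-values of the comparisons with Bet+HMD rest in part on this small spread, and its cause was not tested. LincRNAs took 1.42% ± 0.0260 of the reads in Bet+HMD against 0.508% ± 0.0453 in HMD (SD, n = 3). Bet+HMD libraries appear in the second table alone, so betaine and the set of libraries cannot be told apart in any comparison below that includes them. No group is described as kept for the 2 weeks after the diet without betaine. Betaine and that added time cannot be told apart either. Markers of excitatory hippocampal neurons were detected in every group (5 of 5 markers).

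In the hippocampus of Con mice Cnih2 had the highest level of the 10 genes, at 302 ± 31.4 FPKM, and Gria4 the lowest, at 9.84 ± 0.411 FPKM (SD, n = 3, second table). Gria1 came second at 160 ± 15.1 FPKM, ahead of Gria2 at 57.3 ± 4.67 and Cacng8 at 36.1 ± 3.96 FPKM. The gap between Gria1 and Gria2 depends on the lengths used, 6043 and 15548 bases. Before scaling for length, the Con libraries held 17594, 14090 and 17974 reads of Gria1 and 15166, 15783 and 14717 of Gria2. The TARP encoded by Cacng8 is the form known for its abundance in the hippocampus. The ranges of neighbours in this order did not overlap, except those of Cnih3 (25.7 ± 0.205 FPKM) with Gria3 (24.1 ± 2.13 FPKM) and of Shisa9 (11.2 ± 1.47 FPKM) with Cacng2 (10.9 ± 0.265 FPKM). In the Bet+HMD group the first 4 genes kept their places, while Cnih3 ranked 5 in Con and 7 in Bet+HMD, below Gria3 and Cacng3. The gap between the top pair also narrowed, to 146 ± 3.6 FPKM for Cnih2 and 126 ± 1.49 FPKM for Gria1.

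**Figure D1:**
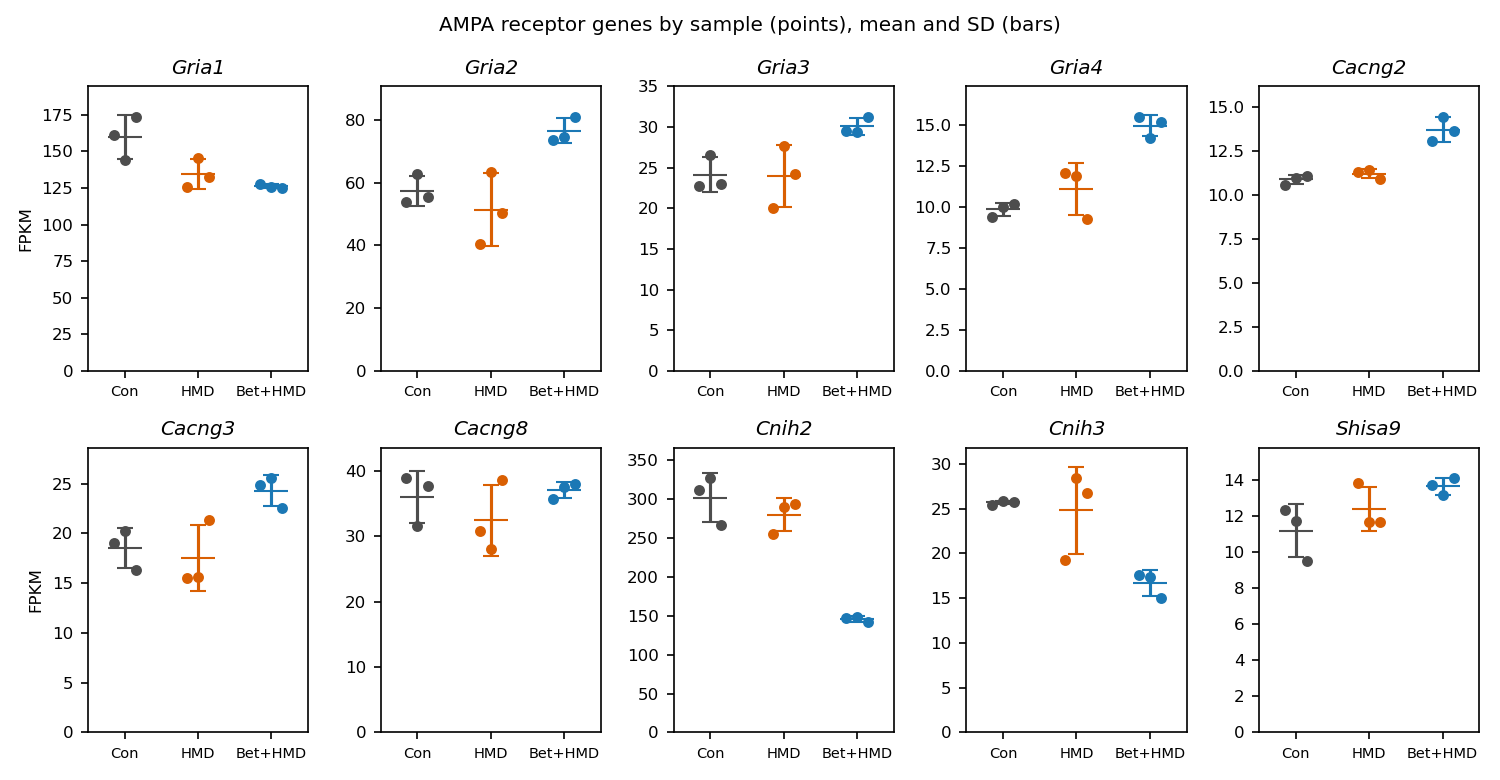
FPKM of each AMPA receptor gene (vertical axis, from 0) in the 3 Con, 3 HMD and 3 Bet+HMD libraries of the second table. Points are libraries and bars the mean and SD; Cnih2 was between 142 and 149 FPKM in Bet+HMD and between 255 and 327 FPKM in the other 6 libraries.

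The first comparison, HMD with Con, asks whether the diet alone changed these genes. None of the 10 passed an adjusted p of 0.05 (limma on log2(FPKM + 1), Benjamini-Hochberg adjustment over 12989 genes). Before adjustment, too, 0 of the 10 were under 0.05, and after it no member was lower than 0.98. Over all genes tested 0% were called, and 4.56% had an unadjusted p under 0.05. No member had groups that did not overlap, where 9.37% of all genes did. The members' log2 fold changes ran from -0.24 for Gria1 to 0.15 for Gria4, 3 above 0 and 7 below, with a median of -0.06 against 0 for all genes.

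Gria1, whose subunit is recruited to synapses during potentiation, stood at 158, 142 and 169 FPKM in the Con libraries and at 125, 142 and 131 FPKM in HMD. The highest HMD library lay just above the lowest Con library. Its log2 fold change was -0.24, with a 95% interval from -0.51 to 0.04 (adjusted p = 0.98, limma). Gria2 was at 52.8, 61.5 and 53.9 FPKM in Con and at 40.0, 61.4 and 49.1 FPKM in HMD, so 2 HMD libraries lay below the Con range and 1 within it. The interval of its log2 fold change ran from -0.56 to 0.21. Cnih2 had a log2 fold change of -0.10, with an interval from -0.40 to 0.20. A change of Cnih2 by the size seen in Bet+HMD below lay outside that interval.

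Library HMD 1 had the lowest value of the 3 HMD libraries for Gria1, Gria2, Gria3, Cnih2 and Cnih3, and without it the log2 fold changes of Gria3 and Cnih3 were both 0.10, against -0.01 and -0.06 with it. Gria4 stood at 9.14, 9.92 and 9.93 FPKM in Con and at 12.0, 11.5 and 9.21 FPKM in HMD. As a share of the summed FPKM of the 4 Gria genes, Gria4 made up 3.77%, 4.15% and 3.88% in Con and 6.10%, 4.74% and 4.33% in HMD, groups that did not overlap (two-sided exact permutation p = 0.1, 0.933 after adjustment over 14 measures). It was the only 1 of the 14 measures with groups apart in this comparison. Gria4 is known to be abundant in the thalamus. The summed level of 6 thalamus markers was 9.54 to 13.5 FPKM in Con and 18.1 to 64.4 FPKM in HMD (3 of 6 markers higher without overlap). None of the 6 markers was at 0 in every library of a group. Their part in the Gria4 share was not tested. In bulk tissue, fewer cells of a type and less RNA per cell cannot be told apart.

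The second comparison, Bet+HMD with HMD, asks whether betaine after the diet changed these genes. Of the 10 members 7 passed the test, 5 higher and 2 lower, where 48.3% of all 13672 genes tested were called (22.8% higher and 25.5% lower). The same 7 had groups that did not overlap, where this held for 60.1% of all genes (28.3% higher and 31.8% lower). Over all 10 members the median log2 fold change was 0.23, against -0.03 over all genes. Genes for Gria2, Gria3 and Gria4 and for the TARPs Cacng2 and Cacng3 were higher, and both cornichon genes were lower. The 5 rises were larger as TPM (0.48 to 0.79), which moved the median of all genes to 0.16, and after quantile normalization (0.37 to 0.92). After a correction for gene length those of Gria2, Gria3, Gria4 and Cacng2 were smaller (0.20 to 0.37) and that of Cacng3 was larger (0.56). With so many genes called, the description below turns on direction and size rather than on the count.

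**Figure D2:**
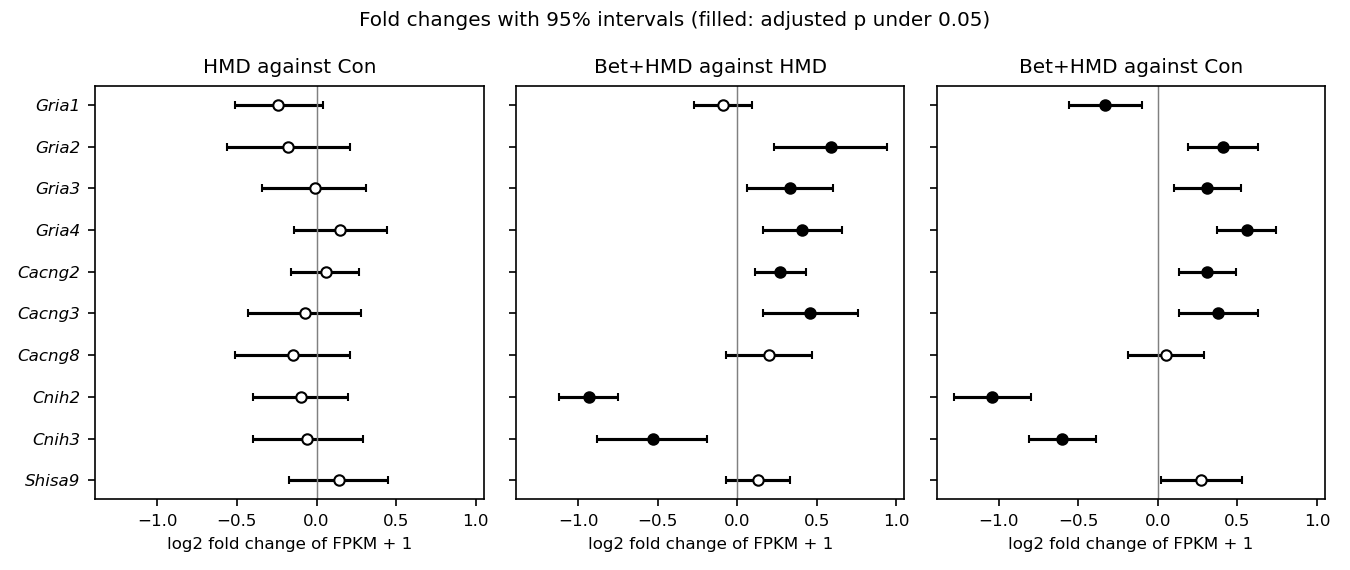
Log2 fold change of FPKM + 1 (horizontal axis) of each member in the 3 comparisons, with its 95% interval from limma; filled points passed an adjusted p of 0.05. All 10 intervals include 0 for HMD against Con, and the intervals of Cnih2 end at -0.75 and -0.80 in the comparisons with Bet+HMD.

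Among the pore-forming subunits, Gria2 moved most against HMD. Its gene lies at chr3:80681450-80802835 (minus strand, mm10). The HMD libraries held 40.5, 63.5 and 50.2 FPKM and the Bet+HMD libraries 73.7, 74.7 and 81.1 FPKM, with every Bet+HMD value above every HMD value. This was a log2 fold change of 0.59 (SE 0.152, 95% interval 0.23 to 0.94, adjusted p = 0.0166 by limma). Without Bet+HMD replicate 3 it was 0.54, with an adjusted p of 0.0594, and after a correction for gene length it was 0.37, with an adjusted p of 0.0544. Gria4, at chr9:4417896-4796234 (minus strand), stood at 12.1, 11.9 and 9.24 FPKM in HMD and at 15.5, 14.2 and 15.1 FPKM in Bet+HMD. These groups were apart too, and the difference was 0.41 on the log2 scale (SE 0.108, adjusted p = 0.0172, limma). Leaving out Bet+HMD replicate 1 or 3 ended the call, at adjusted p-values of 0.0640 and 0.0580. The thalamus markers given above did not rise with Gria4 here. Their sum was 18.7 to 65.1 FPKM in HMD and 18.7 to 19.0 FPKM in Bet+HMD (0 of 6 higher and 2 lower without overlap). Their part in this comparison was not tested.

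Gria3, an X-linked gene at chrX:41400854-41678601 (plus strand), had groups that did not overlap, with 27.7 FPKM the highest of HMD and 29.4 FPKM the lowest of Bet+HMD. Its log2 fold change of 0.33 was at the edge of the threshold (adjusted p = 0.0499), passing in 6 of 12 alternative settings and in 1 of the 6 fits that left out a library, that without HMD replicate 2. It shrank to 0.20 (adjusted p = 0.163) after the length correction and to 0.21 without HMD replicate 1. Gria1, at chr11:57011387-57330244 (plus strand), was at 126, 145 and 133 FPKM in HMD and at 128, 126 and 125 FPKM in Bet+HMD. The Bet+HMD libraries lay at the low end of the HMD range, and the log2 fold change of -0.09 (95% interval -0.27 to 0.09) was not past the threshold. Its direction depended on the scaling, at 0.11 as TPM and 0.30 after quantile normalization.

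The shares of Gria1, Gria2 and Gria3 in the subunit pool did not overlap between the groups, while the share of Gria4 and the summed level did. Summed over the 4 genes, the level was 198, 249 and 217 FPKM in HMD and 247, 244 and 253 FPKM in Bet+HMD, ranges that overlapped. Gria2 made up 20.4%, 25.6% and 23.2% of that sum in HMD and 29.9%, 30.6% and 32.1% in Bet+HMD. The rise of 7.80 percentage points had a two-sided exact permutation p of 0.1, the smallest that 3 against 3 can give, and 0.156 after Benjamini-Hochberg adjustment over the 14 shares, sums and ratios computed. Over the same libraries the share of Gria1 was 58.5% to 63.4% in HMD and 49.5% to 51.9% in Bet+HMD. For Gria4 it was 6.09%, 4.78% and 4.27% in HMD and 6.28%, 5.83% and 5.99% in Bet+HMD. The ratio of Gria1 to Gria2 was 3.11, 2.29 and 2.64 in HMD and 1.74, 1.68 and 1.54 in Bet+HMD. This ratio is free of library scaling, but not of the gene-length trend described below, since the Gria2 model is 15548 bases long and that of Gria1 6043.

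**Figure D3:**
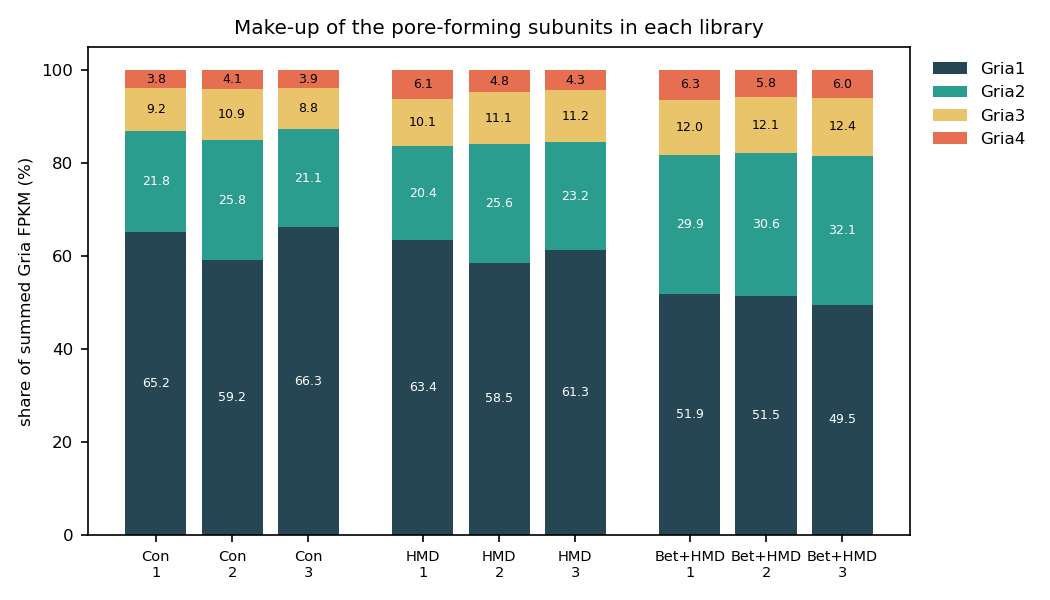
Share of each Gria gene in the summed FPKM of the 4 (vertical axis, percent) in every library of the second table, numbered by replicate. Gria2 makes up 20.4% to 25.8% of the sum in the 6 Con and HMD libraries and 29.9% to 32.1% in the 3 Bet+HMD libraries.

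A pair of subunits of near-equal length was set side by side after the values were seen. Gria4 (6305 bases) and Gria1 (6043 bases) had a Gria4 to Gria1 ratio of 0.0961, 0.0816 and 0.0696 in HMD and of 0.121, 0.113 and 0.121 in Bet+HMD. In Con the ratio was 0.0582, 0.0695 and 0.0584. The Bet+HMD libraries were the highest of the 9 for this ratio, and the Con libraries the lowest.

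Of the 3 TARP genes among the members, Cacng2 and Cacng3 rose against HMD and Cacng8 did not pass. Among the other TARP genes Cacng5 fell, as given below, and Cacng4 (-0.24) and Cacng7 (0.01) did not pass, though Cacng7 did after quantile normalization (0.32, adjusted p = 0.0329). Cacng2 encodes stargazin, the first TARP described, and lies at chr15:77991748-78120028 (minus strand). It stood at 11.3, 11.4 and 10.9 FPKM in HMD and at 13.1, 14.5 and 13.6 FPKM in Bet+HMD, 0.27 higher on the log2 scale (SE 0.0693, adjusted p = 0.0162, limma) between groups that were apart. The call was lost without Bet+HMD replicate 2 (adjusted p = 0.0797) or 3 (adjusted p = 0.0552). Of 100-base stretches of Cacng2 transcripts 4.14% also occur in the overlapping antisense gene A730060N03Rik, which held at most 49 reads in a library.

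Cacng3, at chr7:122670492-122769393 (plus strand), encodes a TARP of forebrain neurons. The HMD libraries held 15.6, 15.7 and 21.4 FPKM and the Bet+HMD libraries 24.9, 25.6 and 22.5 FPKM, which put HMD replicate 3 just below the lowest Bet+HMD value. On the log2 scale Cacng3 was 0.46 higher (SE 0.129, adjusted p = 0.0216, limma). Its call did not hold in 4 of the 6 fits without a library: without HMD replicate 1 (adjusted p = 0.0706) or 2 (0.0527) and without Bet+HMD replicate 1 (0.0696) or 2 (0.0767). Cacng8, at chr7:3390683-3415648 (plus strand), stood at 30.8, 28.1 and 38.6 FPKM in HMD and at 35.8, 37.6 and 38.1 FPKM in Bet+HMD. These ranges overlapped through HMD replicate 3, and the log2 fold change of 0.20 (95% interval -0.07 to 0.47) did not pass. Without that library it was 0.33 (adjusted p = 0.0120), and it passed as TPM, after quantile normalization and after the length correction.

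The cornichon genes moved the other way. Cnih2, at chr19:5092871-5098418 (minus strand), was at 255, 290.5 and 294 FPKM in HMD and at 147, 148 and 142 FPKM in Bet+HMD. All 3 Bet+HMD libraries lay far below the HMD range, with a ratio of means of 0.521. The log2 fold change of -0.93 (SE 0.0778, 95% interval -1.12 to -0.75, adjusted p = 0.000171, limma) lay at the 3.43 percentile of all genes tested. It passed in all 12 alternative settings and in all 6 fits that left out a library, where it ran from -1.0 to -0.90. Its size depended on the scaling, at -0.74 as TPM and -0.51 after quantile normalization. Only 14 exonic bases of Cnih2 are shared with a neighbour, Yif1a on the opposite strand, and the counting was not stated to use strand. Yif1a held at most 201 reads in these libraries, against at least 3053 for Cnih2, and its own log2 fold change was -0.74.

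Cnih3, at chr1:181352628-181460641 (plus strand), was at 19.3, 28.4 and 26.8 FPKM in HMD and at 17.6, 17.4 and 15 FPKM in Bet+HMD. HMD replicate 1 was the nearest to the Bet+HMD values, and the groups did not overlap. Cnih3 fell by 0.53 on the log2 scale (SE 0.148, adjusted p = 0.0213, limma), and 9 of 12 alternative settings called it, the others being TPM (adjusted p = 0.0882), quantile normalization (0.0661) and no filter on low genes (0.0526). It did not pass without HMD replicate 2 (adjusted p = 0.0511) or 3 (0.0582), or without Bet+HMD replicate 2 (0.0518) or 3 (0.0759). Set against the receptor pool, the ratio of Cnih2 to summed Gria FPKM was 1.29, 1.17 and 1.36 in HMD and 0.597, 0.609 and 0.561 in Bet+HMD. Shisa9, at chr16:11984113-12270902 (plus strand), stood at 13.8, 11.7 and 11.7 FPKM in HMD and at 13.7, 13.2 and 14.1 FPKM in Bet+HMD, overlapping ranges with a log2 fold change of 0.13 (95% interval -0.07 to 0.33) that did not pass. It passed as TPM (0.34, adjusted p = 0.0206).

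Summed markers of excitatory and inhibitory neurons were lower in the Bet+HMD libraries on the FPKM scale, where the sum over all genes was lower too (249135 to 258514 FPKM, against 289606 to 292361 FPKM in HMD). The sum of 5 markers of excitatory hippocampal neurons was 350 to 427 FPKM in HMD and 302 to 310 FPKM in Bet+HMD (3 of 5 lower without overlap), and that of 7 interneuron markers was 272 to 347 FPKM against 199 to 228 (4 of 7 lower without overlap). General neuron markers (718 to 829 against 653 to 665 FPKM, 2 of 5 lower and 1 higher without overlap) and astrocyte markers (227 to 248 against 195 to 196 FPKM, 2 of 5 lower) were summed lower as well. No marker of these lists was at 0 in every library of a group. The sum of 5 dentate granule cell markers overlapped, at 44.8 to 58.6 FPKM in HMD and 47.2 to 48.2 FPKM in Bet+HMD. Over the same libraries 5 of the 10 members rose, and the part of these markers in the fall of Cnih2 and Cnih3 was not tested.

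The third comparison, Bet+HMD with Con, shares the Bet+HMD libraries with the second, so both rest on the same 3 values. Of the members 8 passed, 5 higher and 3 lower, where 39.7% of all 13643 genes were called (19.4% higher and 20.4% lower). Groups did not overlap for 9 of 10 members, Shisa9 included, and for 55.1% of all genes (26.1% higher and 29.0% lower). The median log2 fold change of the members was 0.29, against -0.04 over all genes. Gria4 was 9.37, 9.99 and 10.2 FPKM in Con, and the Bet+HMD values given above were 0.56 higher on the log2 scale (SE 0.0779, adjusted p = 0.00218, limma). It was called in all 12 alternative settings and in all 6 fits without a library. The summed thalamus markers were 9.52 to 13.7 FPKM in Con and 18.7 to 19.0 FPKM in Bet+HMD (2 of 6 higher without overlap). None was at 0 in every library of a group, and their part in the rise of Gria4 was not tested.

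The Con libraries held 311, 327 and 267 FPKM of Cnih2, and it fell by 1.04 on the log2 scale (SE 0.103, adjusted p = 0.000668, limma). Cnih3 was at 25.5, 25.9 and 25.8 FPKM in Con, the narrowest spread of any member, and it fell by 0.60 (SE 0.0880, adjusted p = 0.00254, limma). Both cornichon calls held in all 12 alternative settings and in all 6 fits without a library, but the falls were smaller under other scalings. Cnih2 was at -0.82 as TPM and -0.61 after quantile normalization, and Cnih3 at -0.40 and -0.42. Summed markers of excitatory hippocampal neurons were 389 to 434 FPKM in Con and 302 to 310 FPKM in Bet+HMD (4 of 5 lower without overlap). Interneuron markers summed to 273 to 300.5 and 199 to 228 FPKM (3 of 7 lower). The part of these markers in the falls of Cnih2 and Cnih3, and of Gria1 below, was not tested. For Gria2 the Con libraries held 53.9, 62.6 and 55.3 FPKM, and Bet+HMD was 0.41 higher on the log2 scale (SE 0.0933, adjusted p = 0.0135, limma). The call did not hold without Bet+HMD replicate 2 (adjusted p = 0.0541) or 3 (0.0656). The difference shrank to 0.15, with an adjusted p of 0.189, after the correction for gene length.

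Gria1 stood at 161, 144 and 174 FPKM in Con, all above the 125 to 128 FPKM of Bet+HMD. Its log2 fold change was -0.33 (SE 0.0959, adjusted p = 0.0320), but it was -0.11 as TPM and 0.12 after quantile normalization, neither past the threshold. That call was also lost without Con replicate 1 or any 1 of the Bet+HMD libraries (adjusted p of 0.0730 to 0.117). Gria3, Cacng2 and Cacng3 rose by 0.31, 0.31 and 0.38 on the log2 scale (adjusted p = 0.0328, 0.0187 and 0.0275, limma). After the length correction Gria3 was at 0.15, with an adjusted p of 0.168. The call of each of the 3 genes was lost when any 1 Bet+HMD library was left out, which left 3 or 4 members called in all. Without Con replicate 1, 5 members were called. Cacng8 (0.05) and Shisa9 (0.27, adjusted p = 0.0837) did not pass. After quantile normalization both did, Cacng8 at 0.32 (adjusted p = 0.0394) and Shisa9 at 0.38 (0.0280), and Shisa9 also passed as TPM (0.51, adjusted p = 0.0118) and with voom (0.37, adjusted p = 0.0196). The share of Gria2 in the Gria sum was 21.8%, 25.8% and 21.1% in Con, 7.96 percentage points below Bet+HMD (two-sided exact permutation p = 0.1, adjusted p = 0.127), and the sum itself was 243 to 262 FPKM, a range that holds all 3 Bet+HMD values.

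Fold changes in the comparisons with Bet+HMD went with gene length across the genome. Over protein-coding genes of at most 1500 bases the median log2 fold change against HMD was -0.38, between 1500 and 3000 bases it was -0.22, between 3000 and 6000 bases it was -0.07, and above 6000 bases it was 0.06. The corresponding medians for HMD against Con were -0.14, -0.04, 0 and 0.03. Cnih2, the shortest member at 1237 bases, stood at the 19.4 percentile of its length class against HMD and at the 19.8 percentile against Con. Gria2, the longest, stood at the 88.6 percentile of its class against HMD. A pair of like length moved apart: Cnih3 (2751 bases) was at the 23.9 percentile and Cacng3 (2777 bases) at the 90.3 percentile of the same class. Their Cacng3 to Cnih3 ratio, compared after the values were seen, was 0.809, 0.551 and 0.799 in HMD and 1.41, 1.47 and 1.51 in Bet+HMD.

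**Figure D4:**
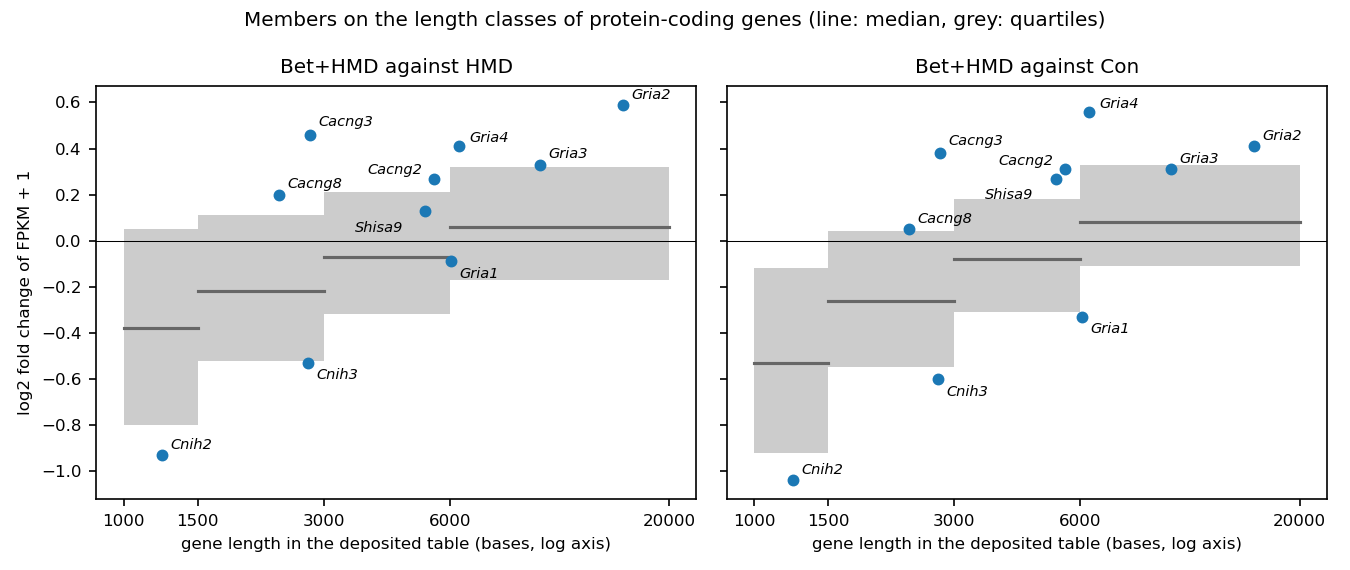
Log2 fold change of FPKM + 1 of each member (points) against the length of its gene model in bases (log axis), for Bet+HMD against HMD and against Con. Grey boxes and lines give the quartiles and median of protein-coding genes in 4 length classes, the outermost drawn cut short; Cnih2 lies below the lower quartile of its class and Cacng3 above the upper quartile in both panels.

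Other genes of AMPA receptor biology were taken as a list of 47, covering further auxiliary proteins, assembly in the endoplasmic reticulum, extracellular clustering proteins, scaffolds and trafficking proteins, and the enzymes that phosphorylate, dephosphorylate or edit the subunits. Of these, 45 were above the filter, and Shisa8 and Prrt2 were not. For HMD against Con none was called by limma and 5 had an unadjusted p under 0.05. The 3 with the smallest p were Cacng5, Nptx2 and Arc. Cacng5, which encodes an atypical TARP, was at 3.48 ± 0.921 FPKM in Con and 6.94 FPKM on average in HMD (log2 fold change 0.85, adjusted p = 0.523). Nptx2, a secreted pentraxin that clusters AMPA receptors, had a log2 fold change of 0.52 (adjusted p = 0.860). Arc, an activity-induced gene whose protein drives receptor internalization, had one of -0.95 (adjusted p = 0.943). Summed over 4 markers of the medial habenula, the level was 1.83 to 2.62 FPKM in Con and 3.24 to 18.7 in HMD (1 of 4 higher without overlap). None was at 0 in every library of a group. These markers and the thalamus markers given above moved in the same direction as Cacng5 and Nptx2, and their part was not tested.

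For Bet+HMD against HMD 22 of the 45 passed, 9 higher and 13 lower, which is 48.9% beside the 48.3% of all genes tested, with a median log2 fold change of -0.05. The largest rises were those of Gripap1 (1.08), which acts in recycling endosomes, Shisa7 (0.88), a CKAMP-family gene, Akap5 (0.60), which anchors kinases and calcineurin at the synapse, Grip2 (0.56), a scaffold that binds GluA2, and Adar (0.51), an RNA-editing enzyme. Gripap1 was at 7.31 ± 1.52 FPKM in HMD and 16.4 FPKM in Bet+HMD (adjusted p = 0.000652), and Shisa7 at 19.8 ± 2.1 and 37.1 FPKM (adjusted p = 0.000336). The largest falls were those of Nptx2 (-1.40), Cnih1 (-1.03), Cacng5 (-0.79), Olfm1 (-0.65), a secreted protein bound to AMPA receptor complexes, and Ppp3cb (-0.55), a catalytic subunit of calcineurin. Cnih1, the third cornichon gene, was at 48.2 ± 2.64 FPKM in HMD and 23.1 FPKM in Bet+HMD (adjusted p = 9.14e-05), so all 3 cornichon genes examined fell. Nptx2 was at 14.6 ± 1.61 and 4.87 FPKM (adjusted p = 9.85e-05). These 10 genes kept their direction under TPM, quantile, median and length scaling, although Olfm1 and Ppp3cb did not pass after quantile normalization (adjusted p = 0.0567 and 0.157), nor Ppp3cb as TPM (0.0705). Grip2, at 2.23 FPKM on average in Bet+HMD, was 0.95 higher as TPM and 0.33 higher after quantile normalization. Beside the fall of Cacng5, summed thalamus markers were 18.7 to 65.1 FPKM in HMD and 18.7 to 19.0 FPKM in Bet+HMD (2 of 6 lower without overlap). Summed habenula markers were 3.01 to 18.9 and 1.74 to 1.97 FPKM (3 of 4 lower). No marker of either list was at 0 in every library of a group. The part of these markers in the fall of Cacng5 was not tested.

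Over all 13672 genes tested 22.8% were called higher and 25.5% lower, and 7141 had a log2 fold change below 0. By group, none of 9 extracellular clustering genes was called higher and 4 were called lower, with all 9 log2 fold changes below 0. As TPM Lrrtm2 (0.14) and Lrrtm4 (0.02) were above 0, as were Nptx1 (0.13), Nptxr (0.15) and Lrrtm2 (0.10) after quantile normalization. Among 12 anchoring and trafficking genes 5 were called higher and 1 lower. The kinase, phosphatase and editing genes had 1 called higher and 4 lower of 10, and the assembly genes 1 higher and 2 lower of 6. Of 8 further auxiliary genes above the filter, 2 were higher and 2 lower. The share called was 44.4% among clustering genes and 50% in each other group, beside 48.3% over all genes tested. As TPM the split over the whole list was 15 higher and 4 lower, so the balance of directions rested on the scaling. Calls over all genes tested moved likewise, from 47.2% higher to 69.5% higher.

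For Bet+HMD against Con 17 of the 45 passed, 7 higher and 10 lower, which is 37.8% beside the 39.7% of all genes tested. The median was -0.07, and as TPM 10 were higher and 4 lower. Shisa7 (0.95), Grip2 (0.77), Gripap1 (0.74), Gsg1l (0.68), another auxiliary subunit, and Akap5 (0.48) rose most. Nptx2 (-0.90), Cnih1 (-0.77), Olfm1 (-0.68), Arc (-0.67) and Ppp3ca (-0.57), a second calcineurin catalytic subunit, fell most. After quantile normalization Olfm1 (-0.22, adjusted p = 0.0781), Arc (-0.39, 0.146) and Ppp3ca (-0.14, 0.330) did not pass, and Arc did not pass as TPM (0.115) or with the length correction (0.0658) either. Grip2, a gene of low level, rose by 1.29 as TPM and by 0.51 after quantile normalization. The rise of Gripap1 was close to the threshold (adjusted p = 0.0487, and 0.0638 after the length correction), with one Con library at 14.1 FPKM against 15.9 to 17.0 FPKM in Bet+HMD. Without Bet+HMD replicate 1, 2 or 3 the count of calls was 8, 9 or 8, and after the length correction it was 11.

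**Figure D5:**
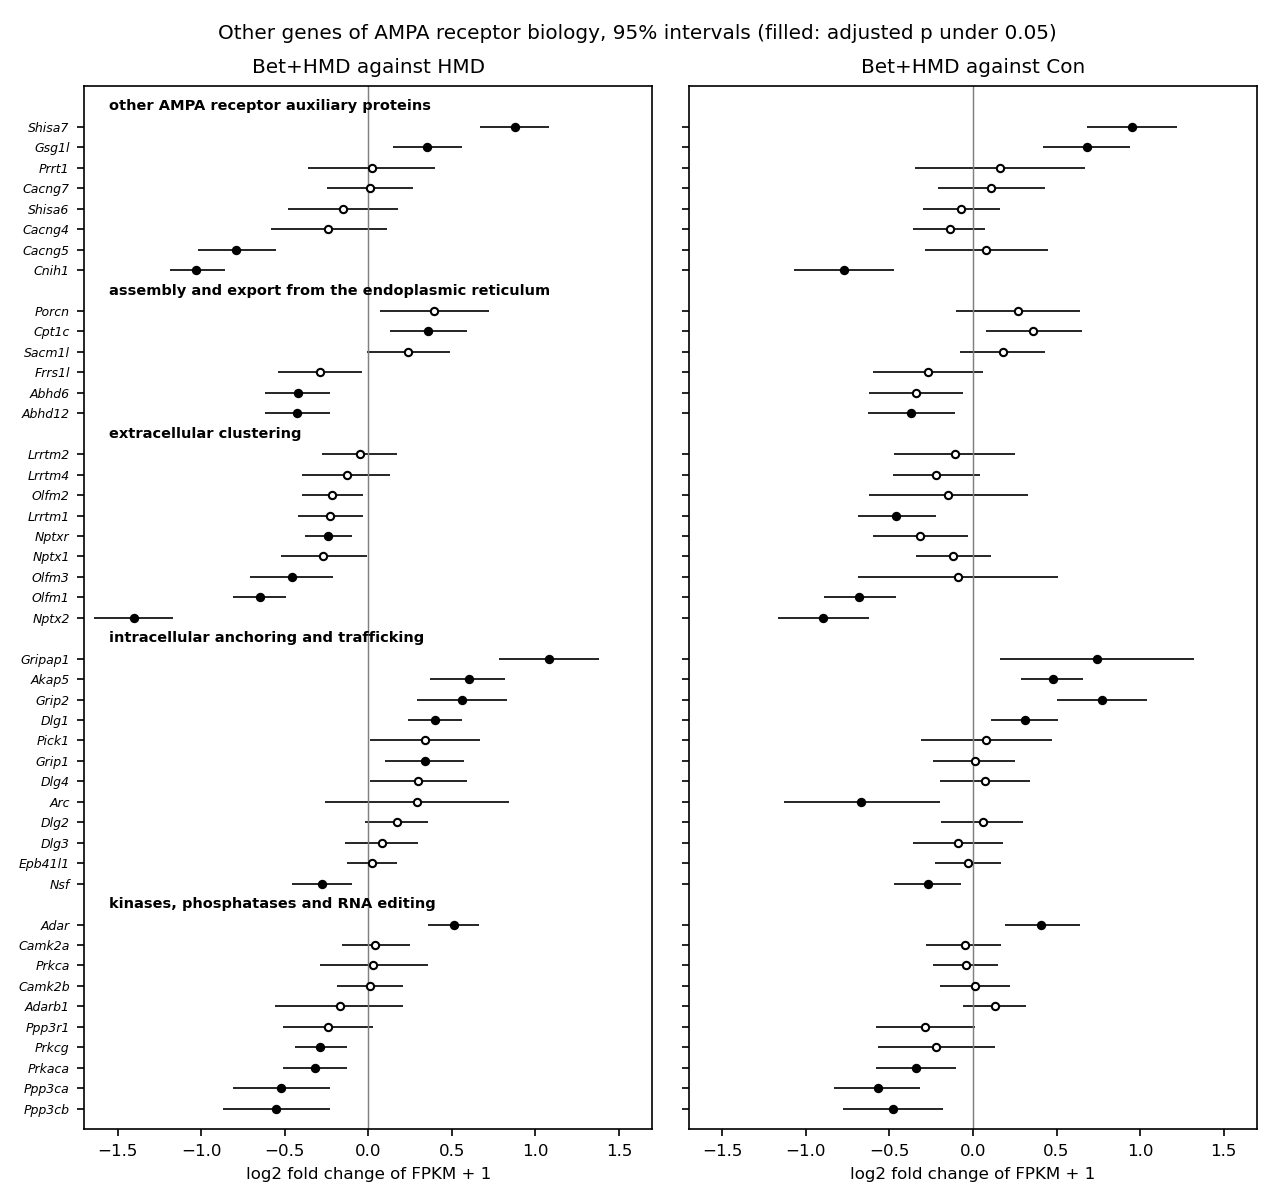
Log2 fold change of FPKM + 1 (horizontal axis, with 95% limma intervals) of 45 other genes of AMPA receptor biology, by group of function and sorted within it, in both comparisons with Bet+HMD. Filled points passed an adjusted p of 0.05. In the panel against HMD all 9 extracellular clustering genes lie below 0 and 11 of the 12 anchoring and trafficking genes above it. Of all 13672 genes tested, 7141 lay below 0 and 6531 above it.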

How the data were processed

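The data were hippocampal RNA-seq from 9 mouse samples in 3 groups of 3. Per the labels and the methods of the study, ribosomal RNA was depleted, stranded paired-end libraries were sequenced, reads were aligned to mm10 and counted per gene (HISAT2 2.1.0 and featureCounts 1.5.0-p3 in the submitters' processing notes). The methods of the study describe no betaine group, so they cover the preparation of Con and HMD alone. The authors deposited FPKM values in 2 tables, one of Con and HMD and a second of all groups. Columns with the prefix COL were read as Con, as the other prefixes name the other groups. Whole reads could be recovered from every value to within 0.01, and gave the depth. Depth bears on counting error only.

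HMD and Con were compared in the first table, and Bet+HMD with each in the second, with limma 3.58.1 (R 4.3.3, trended prior) on log2(FPKM + 1), for genes with a mean of at least 1 FPKM, fitting the 2 groups compared. Fold changes are on that scale and understate changes of low genes. P-values were Benjamini-Hochberg adjusted over all genes tested, at 0.05. Shares were tested by an exact permutation test. Alternatives were a pseudocount of 0.1, no filter or a filter at 5 FPKM, TPM, quantile normalization, median centring, no trend, protein-coding genes alone, limma's voom on the recovered reads, a replicate block, all 3 groups in one fit, the other table for HMD and Con, and leaving out each library. The scripts were tested on simulated data. Figures used matplotlib 3.10.9, and tables pandas 2.3.3.

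For the members, the plot of FPKM by group showed every library of the second table. The text gave values by library for only some members and comparisons. Of the other pathway genes, the 5 largest rises and 5 largest falls among the called genes were named, or the 3 with the smallest p where none was called. Members and lists were chosen with earlier results of these data known. A length correction, chosen after seeing the data, subtracted from each sample a loess curve (span 0.5) of its deviations on log2 gene length. Protein sequences were not used here.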

Additional observations from a re-analysis of the deposited data

How the results depend on the processing

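For HMD against Con, no member and no other pathway gene was called in any of 13 alternative settings or 6 fits without a library. Over all genes the count was 0, but 9 with all 3 groups in one fit (in the table of 3 groups), and 0 to 2 without a library, 2 of them without Con replicate 2. The log2 fold change of Gria3 was 0.0038 as TPM, against -0.01. Without a library it ran from -0.11 to 0.10, that of Cnih3 from -0.15 to 0.10 and that of Cacng3 from -0.21 to 0.01. The Gria2 share differed by 0.0767 percentage points, by -0.121 as a share of reads and by -1.14 to 1.5 without a library.

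For Bet+HMD against HMD, the member count of 7 became 4 with no filter on low genes, where more genes are tested, and 2 to 6 without a library (4, 3 and 2 without Bet+HMD replicates 1, 2 and 3). Over all genes the 6607 calls became 4166 with the filter at a mean of 5 FPKM, where 7549 genes are tested. Without a library they ran from 4782 to 6990. The log2 fold change of Gria1 turned from -0.09 to 0.11 as TPM and to 0.30 after quantile normalization, where it was called (adjusted p = 0.0128). The calls of other pathway genes ran from 16 to 27 without a library. The Gria2 share differed by 6.48 to 9.05 percentage points.

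For Bet+HMD against Con, the 5422 calls over all genes became 3260 with the filter at 5 FPKM, where fewer genes are tested. Without a library they ran from 3302 to 6269. Members called ran from 3 to 8 and other pathway genes from 8 to 21 without a library, the lowest without a Bet+HMD library. With the length correction 11 other pathway genes were called. The log2 fold change of Gria1 turned from -0.33 to 0.12 after quantile normalization, and that of Cacng8 from 0.05 to -0.04 without Con replicate 2, with a highest value of 0.11. The Gria2 share differed by 7.06 to 9.40 percentage points.

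Apart from the filter, the causes of these shifts were not tested. TPM moved the median of all genes to 0.16 against HMD and 0.17 against Con. Members called as TPM were 7 higher and 1 lower against HMD, and 6 higher and 2 lower against Con. Against Con, calls over all genes moved from 48.8% to 73.5% higher.

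Nothing in the labels says that samples with the same number share an animal, cage or day. For HMD against Con their deviations from the group means correlated at -0.0555, 0.346 and 0.319 for replicates 1, 2 and 3. In the comparisons with Bet+HMD these correlations ran from -0.176 to 0.0171. The numbers were not taken as pairs, and a replicate block was run as an alternative. With the replicate number as a block, 4 members and 11 other pathway genes were called for Bet+HMD against Con, and 5 members and 20 other pathway genes for Bet+HMD against HMD. Cnih2 was called in both.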
